A study of Mus musculus with 10 samples.

Results

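The genes described here are 39 mouse genes of the interferon and nucleic acid sensing system, taken from a fixed list of names and followed on 10 one-colour Agilent expression arrays of embryonic stem (ES) cells. Every non-control probe whose transcript accession belongs to one of the 39 genes was collected. They numbered 44 probes for 37 of the 39 genes, out of 20972 genes with a probe on the array, and neither Mx1 nor Mx2 was among them. Of several probes of a gene, that with the highest mean level over the 10 arrays stood for the gene.

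Foreign DNA in the cytosol can be read by sensors that signal through the kinase Tbk1 and the factor Irf3 to switch on the gene for interferon beta, while foreign RNA is read by helicases such as Ifih1 that act through the mitochondrial adaptor Mavs. Secreted interferon then binds the Ifnar1 and Ifnar2 receptor chains, and Stat2 and Irf9 take part in turning on interferon-stimulated genes through a short promoter element. Mouse ES cells are known for making little interferon and for answering it weakly, and a plasmid transfection brings foreign DNA into the cell.

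The cells were E14 ES cells of the 129/Ola background, grown without feeders on gelatin with serum and Lif, a cytokine that holds them undifferentiated. In the Hottip gRNA group (4 arrays), 5 guide RNA (gRNA) plasmids against the promoter of the lncRNA Hottip were transfected together with a plasmid for dCas9-VP160, a Cas9 without cutting activity fused to an activation domain. By its label, the Hoxa13 gRNA group (3 arrays) had 5 gRNAs directed at the Hoxa13 promoter, and the study describes these as transfected with dCas9-VP160 as well. The control group (3 arrays) is labelled as transfected with control gRNA, and the study describes its controls as non-targeting gRNAs with dCas9 alone and elsewhere as dCas9 without VP160, so its exact plasmids are not settled. By their labels all 3 groups received plasmid DNA, which also carried mCherry and puromycin resistance, and all were kept in puromycin (2 μg/ml) over 24 hrs, with RNA taken 48 hrs after transfection. No untransfected cells were measured, so what transfection itself did to these genes cannot be told apart from their basal level.

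Values are levels on a log2 scale, namely the log2 of the processed signal of the scanner software minus the 75th percentile of the same array, so that 0 marks a fairly bright spot. A level can be compared between arrays for one probe but not between probes. A probe was counted as detected on an array when the scanner software marked it well above background. Between 31.87% and 41.41% of all probes were detected on an array, and a spot that the software marked as an outlier gave no value. Hoxa13 served as the check of the labels. Its 2 probes stood between 2.58 and 4.16 on the 4 Hottip gRNA arrays and between -6.12 and -3.46, never detected, on the 6 other arrays. The arrays labelled Hoxa13 gRNA thus showed no raised Hoxa13, and they are named by their label throughout. The ES cell identity was plain in the same arrays, since 11 of 11 ES cell markers were detected on all 10 arrays. Of 8 fibroblast and 7 immune cell marker genes with a probe, 0 were detected on all 10 arrays, 2 of each list (Postn and Lum, Ptprc and Tyrobp) were detected on none, and the others on some, up to 7 arrays for Col3a1 and Thy1 and 9 for Itgam. Of 7 extraembryonic endoderm markers, Gata6 was detected on all 10 arrays, Sox7 on 9, Dab2 on 8 and Afp on none.

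Of the 37 genes, 15 were detected on all 10 arrays, 9 on 3 to 9 arrays, 7 on 1 or 2 arrays and 6 on none. Over all 20972 genes, 40.9% were detected on all 10 arrays and 27.8% on none, against 40.5% and 16.2% of the interferon and DNA-sensing genes. Each array detected between 16 and 25 of the 37 genes. The receptors, the Mavs, Tbk1 and Irf3 signalling chain and the membrane effectors were mostly present, whereas interferon beta itself, Usp18, Ifit1, Ifit3, Oas2 and Ccl5 were detected on no array. A dim spot only bounds the RNA behind it, and a gene below background may still be transcribed at a low level.

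**Figure D1:**
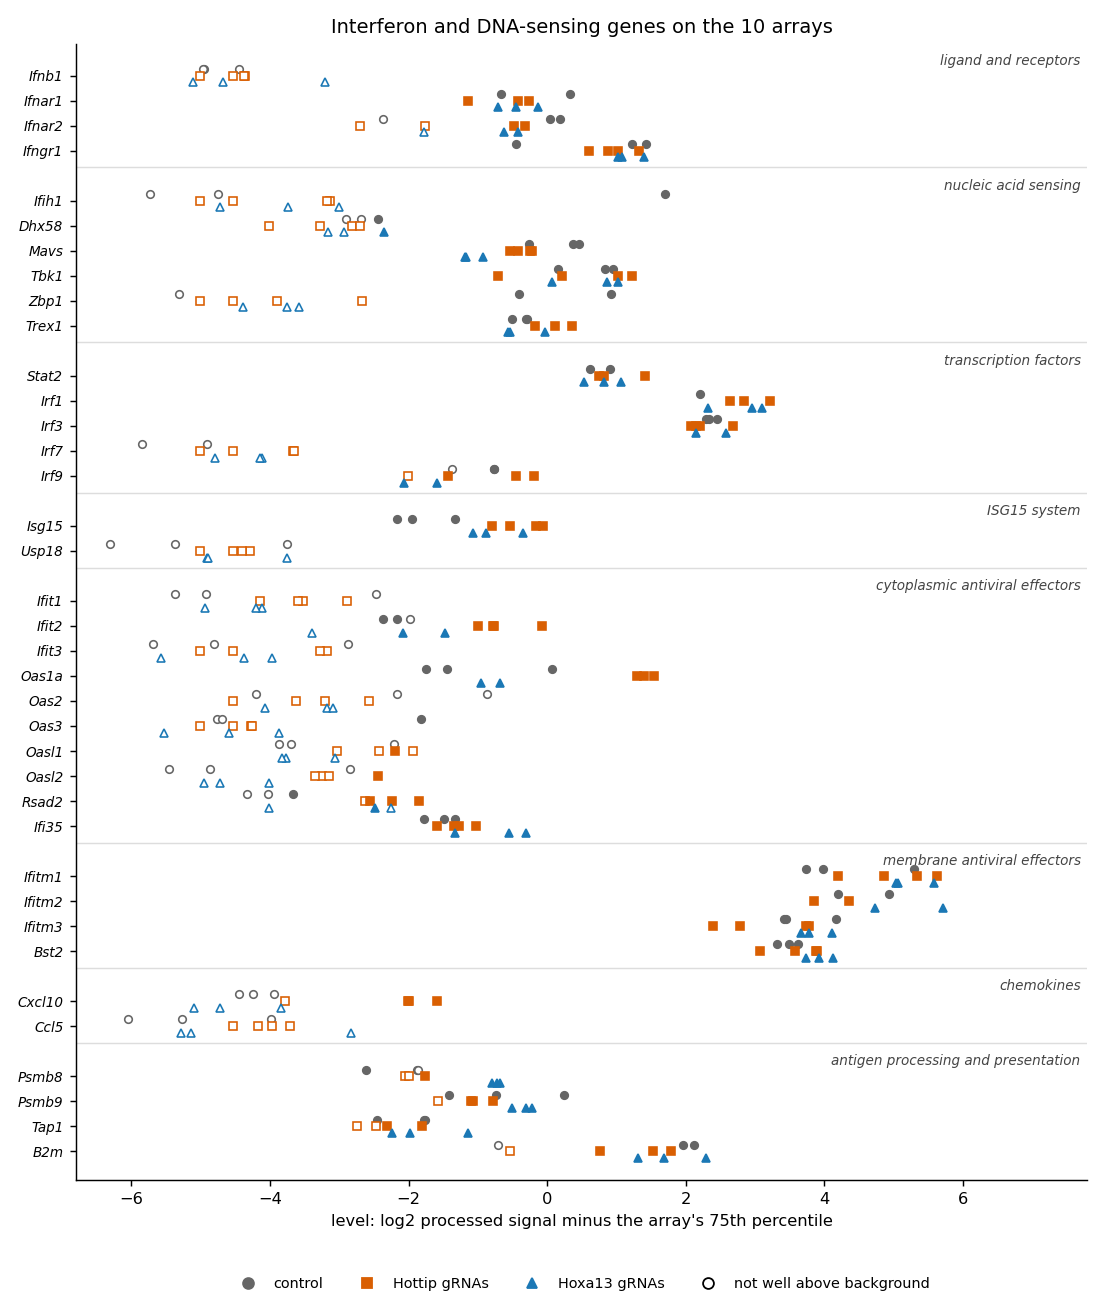
Level of each of the 37 genes on each array, as log2 processed signal minus the array's 75th percentile (horizontal axis), grouped by role. Grey circles are the 3 control arrays, orange squares the 4 Hottip gRNA arrays and blue triangles the 3 arrays labelled Hoxa13 gRNA, and open symbols mark spots not well above background. Points can be compared along a row but not between rows. Ifitm1, Ifitm2, Ifitm3, Bst2, Irf1 and Irf3 are filled on every array, and Ifnb1, Usp18, Ifit1, Ifit3, Oas2 and Ccl5 are open on every array.

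The promoter sequences of 6 of the genes are shown because they hold a match to the core of the element through which interferon acts. The core of the interferon-stimulated response element was searched on both strands as GAAA, any 2 bases and GAAA again (TTTC, any 2 bases and TTTC when it lies on the other strand), in the 250 bases before and 50 bases after each gene's start (RefSeq, GRCm38.p6). Promoters were matched for 32 of the 39 genes, and 13 of the 32 (40.6%) held the core, compared with 3.99% of all 27025 genes and 3.44% of all 32851 promoters of that length. Each line below is 80 bases upstream of the start, read along the gene's own strand, with matches in capitals. Oas1a, Isg15, Rsad2 and Cxcl10 are the 4 tested genes with the core that rose most from the control to the Hottip gRNA arrays. Bst2 was detected on every array, and Ifit1 was detected on none. The Oas1a window is chr5:120907526-120907605 (minus strand), that of Isg15 chr4:156200842-156200921 (minus), that of Rsad2 chr12:26456518-26456597 (minus), that of Cxcl10 chr5:92349048-92349127 (minus), that of Bst2 chr8:71537548-71537627 (minus) and that of Ifit1 chr19:34640760-34640839 (plus).
Oas1a: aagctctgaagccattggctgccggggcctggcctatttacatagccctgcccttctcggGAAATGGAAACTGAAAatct
Isg15: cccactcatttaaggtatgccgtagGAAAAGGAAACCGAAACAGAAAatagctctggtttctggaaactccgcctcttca
Rsad2: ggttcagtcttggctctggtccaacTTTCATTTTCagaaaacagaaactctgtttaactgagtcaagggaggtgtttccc
Cxcl10: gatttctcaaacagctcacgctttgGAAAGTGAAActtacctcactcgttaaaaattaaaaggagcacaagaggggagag
Bst2: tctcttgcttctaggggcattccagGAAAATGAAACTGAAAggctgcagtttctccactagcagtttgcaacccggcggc
Ifit1: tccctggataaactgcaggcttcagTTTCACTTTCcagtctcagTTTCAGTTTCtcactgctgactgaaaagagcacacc

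In Isg15, 3 matches overlapped into one run of GAAA repeats that began 78 bases before the start. Oas1a and Bst2 each held 2 overlapping matches, which began 20 and 130 bases before the start. Ifit1 held 2 separate matches on the other strand, and Rsad2 and Cxcl10 held 1 each. A gamma-activated site, searched as TTCNNNGAA (which reads the same on both strands), was found in 9 of the 32 genes (28.1%) and in 9.55% of all genes, with Oas1a, Bst2 and Ifitm3 holding both motifs and 2 pairs of matches sharing bases. Of the 13 genes with the core, 6 were detected on all 10 arrays and 2 on none. Of the 19 genes without it, 9 were detected on all 10 arrays and 1 on none. A match is a run of letters in this window and was not shown to be bound or used here. A gene without a match lacked only this exact pattern in the searched window, and may hold the element elsewhere or in another form.

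**Figure D2:**
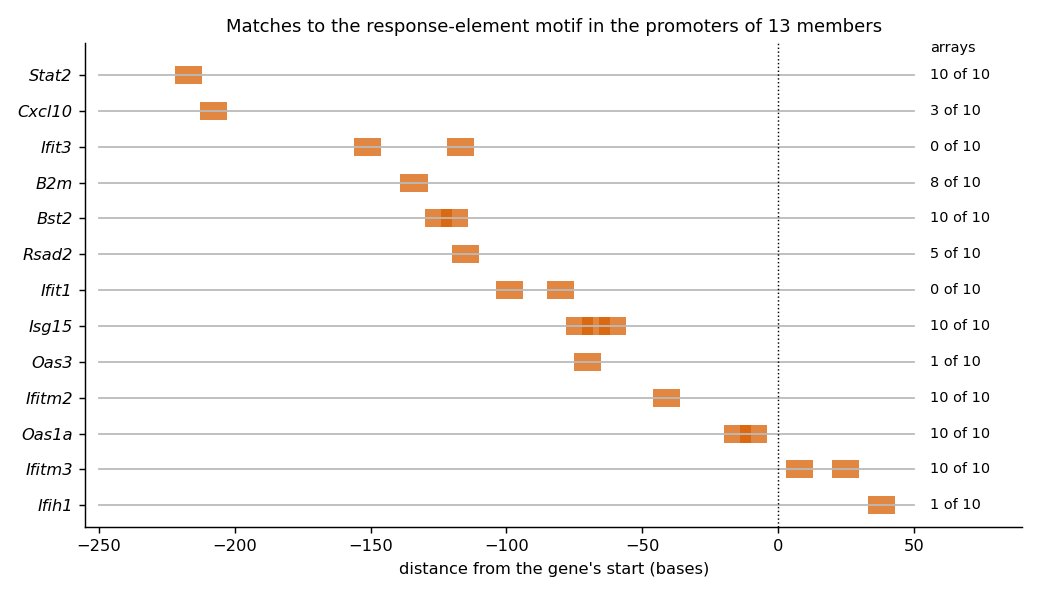
Position of each match to the response element core (orange boxes, either strand) along the promoter of the 13 genes that hold one, in bases from the gene's start (dotted line), with the number of arrays that detected the gene at the right. The matches of Isg15, Oas1a and Bst2 overlap (darker parts), those of Ifitm3 and Ifih1 lie after the start, and Ifit1 and Ifit3 hold 2 matches each while being detected on 0 of 10 arrays.

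The ligand and its receptors came first in the pathway. Ifnb1, the gene for interferon beta, stood at -4.96, -4.97 and -4.45 on the control arrays, at -4.36, -4.38, -4.54 and -5.01 on the Hottip gRNA arrays and at -3.21, -5.12 and -4.68 on the arrays labelled Hoxa13 gRNA. None of these spots was well above background, and the values of Hottip gRNA replicates 3 and 4 were the lowest level those arrays could give. Ifnar1, a chain of the type I interferon receptor, stood at 0.33 and -0.67 on the 2 control arrays with a value, at -1.14, -0.25 and -0.41 on 3 Hottip gRNA arrays and at -0.13, -0.45 and -0.70 on the arrays labelled Hoxa13 gRNA. The 3 groups overlapped. Its 2 dimmer probes were detected on 6 and 7 arrays and disagreed on control replicate 3, where they stood at 1.92 and -2.71. Ifnar2, the other chain, was at 0.18, 0.04 and -2.37 in the control, at -1.76, -2.70, -0.48 and -0.32 with Hottip gRNAs and at -0.62, -0.42 and -1.78 on the arrays labelled Hoxa13 gRNA. Its low values were those of control replicate 3, Hottip gRNA replicates 1 and 2 and Hoxa13 gRNA replicate 3, which lay on the same row of 1 slide, and these 4 spots were the ones not detected. Ifngr1, a chain of the interferon gamma receptor, was detected on all 10 arrays, at 1.43, 1.22 and -0.46 in the control, at 0.61, 1.03, 1.33 and 0.89 with Hottip gRNAs and at 1.08, 1.02 and 1.41 on the arrays labelled Hoxa13 gRNA. RNA of both receptors was thus detected in every group, and limma called 0 of the 3 tested receptor genes in any comparison.

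Of the 6 nucleic acid sensing genes, 3 were detected on all 10 arrays. Mavs, the mitochondrial adaptor of the RNA sensors, stood at -0.26, 0.38 and 0.47 in the control, at -0.53, -0.22, -0.25 and -0.42 with Hottip gRNAs and at -1.18, -0.92 and -1.17 on the arrays labelled Hoxa13 gRNA. The latter 3 arrays were below all 7 others. Tbk1, the kinase on which DNA and RNA sensing converge, stood at 0.96, 0.84 and 0.15 in the control, at -0.71, 0.21, 1.23 and 1.02 with Hottip gRNAs and at 1.03, 0.86 and 0.07 on the arrays labelled Hoxa13 gRNA, with full overlap of the groups. Trex1, an exonuclease that removes cytosolic DNA, stood at -0.28, -0.30 and -0.51 in the control, at -0.17, 0.12 and 0.36 on 3 Hottip gRNA arrays and at -0.03, -0.56 and -0.54 on the arrays labelled Hoxa13 gRNA. The Hottip gRNA values of Trex1 lay just above those of the control but overlapped those labelled Hoxa13 gRNA.

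The other 3 genes, Ifih1, Zbp1 and Dhx58, were mostly below background. Of 16 sensors and adaptors from the further pathway lists, 7 were detected on all 10 arrays, among them Ddx58 and Aim2, sensors of RNA and DNA. On no array were 2 of the 16 detected, Ifi204 and Tlr3. Cgas, a DNA sensor, was detected on 9 arrays and Sting1, an adaptor, on 4. Ifih1, an RNA helicase sensor, was detected on 1 array only, control replicate 3, where 1 of its 2 probes stood at 1.71 against -3.01 or lower on the other 9 arrays while the other probe stood at -4.39. Zbp1, a sensor of Z-form nucleic acid, was likewise detected by 1 probe on control replicates 1 and 2, at -0.41 and 0.92, where its second probe stood at -4.18 and -4.57. That second probe was detected on 2 of the arrays labelled Hoxa13 gRNA, at -0.99 and -1.76. The probes of Ifih1 and of Zbp1 thus disagreed, and neither gene was tested. Dhx58, a regulator of the RNA helicases, ranged from -4.01 to -2.36 and was detected on 2 arrays.

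Among the transcription factors, Stat2, Irf1 and Irf3 were detected on all 10 arrays. Stat2, a partner of Irf9 in interferon signalling, stood at 0.91 and 0.63 on 2 control arrays, at 0.82, 1.42 and 0.76 on 3 Hottip gRNA arrays and at 0.83, 0.54 and 1.07 on the arrays labelled Hoxa13 gRNA. Irf1, which acts downstream of interferon gamma, stood at 2.21 on the 1 control array with a value, at 3.22, 2.84 and 2.64 on 3 Hottip gRNA arrays and at 2.95, 2.33 and 3.10 on the arrays labelled Hoxa13 gRNA, so that its control spread could not be measured. Irf3, the factor that Tbk1 activates, stood at 2.45, 2.30 and 2.34 in the control, at 2.2, 2.08, 2.68 and 2.15 with Hottip gRNAs and at 2.59 and 2.15 on 2 arrays labelled Hoxa13 gRNA. The groups of Stat2 and of Irf3 overlapped.

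Irf7, the factor that amplifies the interferon response, stood at -5.85 and -4.91 on 2 control arrays, at -3.67, -3.65, -4.54 and -5.01 with Hottip gRNAs and at -4.12, -4.80 and -4.14 on the arrays labelled Hoxa13 gRNA. It was well above background only on control replicate 3, where the spot was an outlier and gave no value. Irf9, the DNA-binding partner of Stat2, stood at -0.76, -0.77 and -1.37 in the control, at -2.01, -1.43, -0.44 and -0.19 with Hottip gRNAs and at -1.60 and -2.07 on 2 arrays labelled Hoxa13 gRNA. Those 2 values lay below all 3 control values but within reach of the Hottip gRNA arrays. The spot of Hoxa13 gRNA replicate 3 was an outlier, and the lack of overlap with the control holds only without it.

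Isg15 and Usp18 form the ISG15 system. Isg15, a ubiquitin-like protein that is attached to other proteins after interferon, was detected on all 10 arrays. Its level was -1.95, -2.17 and -1.33 in the control, -0.16, -0.05, -0.54 and -0.80 with Hottip gRNAs and -0.35, -0.88 and -1.07 on the arrays labelled Hoxa13 gRNA. All 7 arrays of the groups labelled Hottip gRNA and Hoxa13 gRNA were thus above all 3 control arrays. The second Isg15 probe was detected on 1 array and was not tested. Usp18, the protease that removes Isg15, ranged from -6.32 to -3.75 and was detected on none.

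Oas1a makes the short oligoadenylates that activate RNase L, and 2 probes measured it. The brighter probe stood at -1.76, 0.08 and -1.44 in the control, at 1.54, 1.30 and 1.41 on 3 Hottip gRNA arrays and at -0.96 and -0.68 on 2 arrays labelled Hoxa13 gRNA. The second probe stood at -2.10, -2.53 and -2.47 in the control, at 0.28, 0.82 and 0.88 on 3 Hottip gRNA arrays and at -1.11, -1.59 and -1.33 on the arrays labelled Hoxa13 gRNA. Over the spots with a value, both probes were highest in the Hottip gRNA arrays without overlap. The second probe also separated the arrays labelled Hoxa13 gRNA from the control. For the brighter probe the spot of Hoxa13 gRNA replicate 2 was an outlier, and the lack of overlap holds only without it. With outlier spots kept, the brighter probe stood 0.95 higher on the arrays labelled Hoxa13 gRNA than in the control, instead of 0.22. Oas1a has close paralogs, and RNA of those may share its probes. The other members of the family gave little signal: Oas2 was detected on none, and Oas3, Oasl1 and Oasl2 on 1 array each.

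Rsad2, or viperin, a radical enzyme that blocks viral replication, stood at -3.67, -4.33 and -4.02 in the control, at -2.64, -2.24, -1.85 and -2.56 with Hottip gRNAs and at -2.26, -2.48 and -4.01 on the arrays labelled Hoxa13 gRNA. It was dim, being detected on 5 arrays, 3 of them Hottip gRNA arrays. Ifit2, which binds viral RNA, stood at -2.17, -2.36 and -1.98 in the control, at -0.78, -1.0, -0.07 and -0.77 with Hottip gRNAs and at -1.47, -3.39 and -2.08 on the arrays labelled Hoxa13 gRNA. The Hottip gRNA arrays were above all 6 others for Ifit2, while its relatives Ifit1 and Ifit3 were not detected. Ifit1 stood at -5.37, -4.93 and -2.47 in the control, at -3.53, -3.60, -4.15 and -2.89 with Hottip gRNAs and at -4.12, -4.93 and -4.2 on the arrays labelled Hoxa13 gRNA. Ifi35, an interferon-induced leucine zipper protein, was detected on all 10 arrays with overlapping groups.

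**Figure D3:**
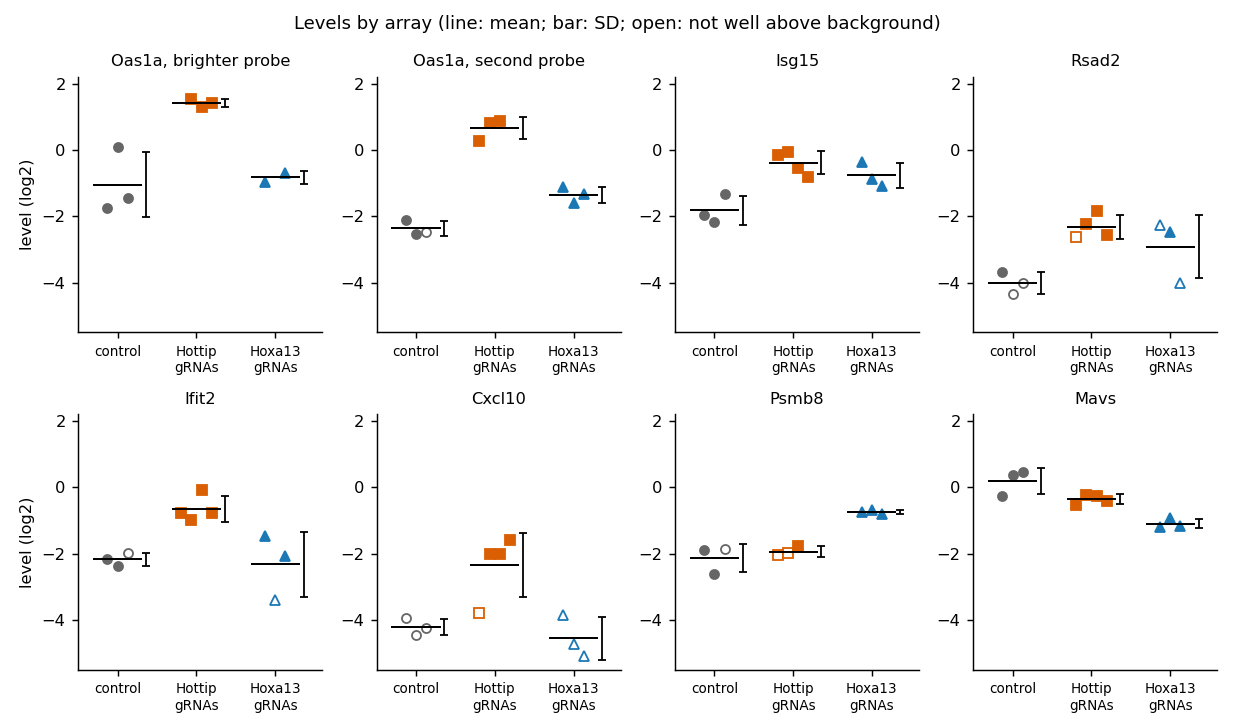
Level by array (log2 processed signal minus the array's 75th percentile, vertical axis) for the 2 probes of Oas1a and for Isg15, Rsad2, Ifit2, Cxcl10, Psmb8 and Mavs. Horizontal lines are group means, bars are SD, and open symbols were not well above background. The Hottip gRNA squares lie above every control circle for Oas1a, Isg15, Rsad2, Ifit2 and Cxcl10, and the Hoxa13-labelled triangles lie above every control circle for Psmb8 and below every one for Mavs.

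The membrane effectors were detected on every array in every group. Ifitm1, a membrane protein that hinders virus entry, stood at 3.74, 3.98 and 5.30 in the control, at 5.33, 5.62, 4.86 and 4.21 with Hottip gRNAs and at 5.59, 5.03 and 5.06 on the arrays labelled Hoxa13 gRNA. Ifitm2 stood at 4.93 and 4.2 on 2 control arrays, at 4.36 and 3.86 on 2 Hottip gRNA arrays and at 4.73 and 5.71 on 2 arrays labelled Hoxa13 gRNA. Ifitm3 stood at 3.42, 3.45 and 4.16 in the control, at 3.74, 3.78, 2.78 and 2.40 with Hottip gRNAs and at 4.11, 3.78 and 3.67 on the arrays labelled Hoxa13 gRNA. These 3 genes are close paralogs, and their probes may share signal. Bst2, or tetherin, which holds budding virus at the cell surface, stood at 3.50, 3.32 and 3.63 in the control, at 3.88, 3.58, 3.90 and 3.07 with Hottip gRNAs and at 4.13, 3.92 and 3.73 on the arrays labelled Hoxa13 gRNA. All 4 genes were thus well above background in cells in which Ifnb1 was not.

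Cxcl10, a chemokine that attracts T cells, stood at -3.94, -4.44 and -4.25 in the control, at -3.78, -2.0, -2.0 and -1.58 with Hottip gRNAs and at -3.84, -4.72 and -5.10 on the arrays labelled Hoxa13 gRNA. It was detected only on Hottip gRNA replicates 2, 3 and 4, and replicate 1 stood near the control. Ccl5, another chemokine, ranged from -6.06 to -2.84 and was detected on none.

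Antigen processing genes were detected on some arrays of each group and none of the 4 on all 10. Psmb8, an immunoproteasome subunit, stood at -1.88, -2.61 and -1.87 in the control, at -2.05, -1.99 and -1.76 on 3 Hottip gRNA arrays and at -0.73, -0.68 and -0.80 on the arrays labelled Hoxa13 gRNA. The latter 3 arrays were above all others with a value and spread over little. The spot of Hottip gRNA replicate 4 was an outlier, and the lack of overlap with the Hottip gRNA arrays holds only without it. Psmb9, its neighbour and partner, stood at 0.24, -0.74 and -1.42 in the control, at -1.57, -1.09, -0.78 and -1.07 with Hottip gRNAs and at -0.51, -0.22 and -0.31 on the arrays labelled Hoxa13 gRNA. B2m, the constant chain of MHC class I, stood at 1.97, 2.12 and -0.70 in the control, at -0.54, 0.76, 1.53 and 1.78 with Hottip gRNAs and at 2.30, 1.69 and 1.31 on the arrays labelled Hoxa13 gRNA. Its 2 lowest arrays, control replicate 3 and Hottip gRNA replicate 1, were the only ones on which it was not detected. Tap1, the peptide transporter, ranged from -2.75 to -1.15 over all arrays and its groups overlapped.

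The groups were then compared with limma over all probes, with Benjamini-Hochberg adjustment over the 22830 probes (22825 between both gRNA-labelled groups other than the control) that were detected on at least 3 arrays and had a value in each group. An adjusted p under 0.05 counted as a call. This left 24 of the 37 genes and 27 of the 44 probes to be tested. Genes detected in a single group could pass this filter through that group alone, as Cxcl10 did.

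Relative to the control, the Hottip gRNA arrays had a higher Oas1a level by 1 of its 2 probes, and no other gene passed the test. By the representing probe, 0 of 24 genes were called, against 0.718% of all tested probes (0.425% higher and 0.293% lower), while at an unadjusted limma p under 0.05 there were 5 higher genes and 0 lower ones, against 3.76% and 4.29% of all tested probes. By probe, 1 of 27 was called, the second probe of Oas1a, which rose by 3.03 ± 0.37 (SE, 3 arrays against 3, limma adjusted p = 0.00551). The brighter Oas1a probe differed by 2.45 ± 0.52 (SE, adjusted p = 0.0964, limma). The mean of both probes, each centred on its own mean, differed by 2.69 and was called (limma adjusted p = 0.00322). Oas1a was thus called through the second probe and through the mean of its probes, but not through the brighter probe.

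The other 4 genes did not pass the adjusted test. Cxcl10 stood 1.87 ± 0.54 higher (SE, limma adjusted p = 0.242), and no control array detected it. The difference was 2.16-fold when set against the lowest signal well above background on each control array, or the probe's own signal where higher. That is not a strict lower limit, since an undetected spot can lie above that signal. On control replicate 2, Oas2 was not detected at -0.86, while the lowest level well above background was -3.08. Rsad2 stood 1.69 ± 0.46 higher (SE, limma adjusted p = 0.208). Ifit2 stood 1.52 ± 0.47 higher (SE, limma adjusted p = 0.299). Isg15 stood 1.43 ± 0.37 higher (SE, limma adjusted p = 0.173). For Isg15, Rsad2 and Ifit2, the 4 Hottip gRNA arrays against the 3 control arrays gave a two-sided exact permutation p of 0.0286, the smallest that 35 splits allow, and for Cxcl10 it was 0.0571. Without Hottip gRNA replicate 1, the array near the control, Cxcl10 differed by 2.35 and was called (limma adjusted p = 0.0384), but over all alternatives its difference ran down to 1.06 and its adjusted p up to 0.698, and it was tested only through the Hottip gRNA arrays that detected it. Median levels of the surrounding 11 by 11 spots differed in the same comparison by -1.62 for the brighter and 0.74 for the second Oas1a probe, and by -0.66 for Isg15, 0.16 for Rsad2, 0.38 for Ifit2 and 0.20 for Cxcl10, and their part was not tested.

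Groups did not overlap for 6 genes, all higher with Hottip gRNAs, namely these 5 and Trex1, which differed by 0.47 ± 0.36 (SE, limma adjusted p = 0.926). Over all tested probes, the groups did not overlap in 5.69% with the Hottip gRNA arrays higher and in 7.51% with them lower. The lowest differences were those of Ifnar2 at -0.60 ± 0.75, Mavs at -0.55 ± 0.32 and Ifitm3 at -0.50 ± 0.43 (SE, limma adjusted p from 0.81 to 0.998), all with overlapping groups. That of Ifitm3 was 0.08 without Hottip gRNA replicates 3 and 4, and that of Ifnar2 was 0.01 without the scanner software's trend correction.

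No gene was called in any role by its representing probe, and roles were not tested against each other. The 4 tested cytoplasmic effectors (Oas1a, Rsad2, Ifit2 and Ifi35) had a median difference of 1.60, whereas the 3 receptor genes had -0.44, the 3 sensing genes -0.21, the 4 transcription factors 0.09, the 4 membrane effectors -0.16 and the 4 antigen processing genes -0.29. Over all 24 genes the median was 0.15, beside -0.03 over all tested probes, and 13 were above 0, beside 47.8% of all tested probes. Among the 9 tested genes with the response element core in the promoter, 4 stood higher at an unadjusted p under 0.05 (Oas1a, Isg15, Rsad2 and Cxcl10, whose promoters are printed above) and the median was 0.23. Among the 15 without a match in the searched window, 1 did (Ifit2) and the median was -0.05. The lack of a match does not show that a gene lacks the element. Of all tested probes, 3.76% stood higher at an unadjusted limma p under 0.05. Cxcl10 was tested only through the Hottip gRNA arrays that detected it, and the part of the core in these differences was not tested. Bst2, which carries 2 overlapping matches, differed by 0.13 ± 0.34 (SE, limma adjusted p = 0.999).

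**Figure D4:**
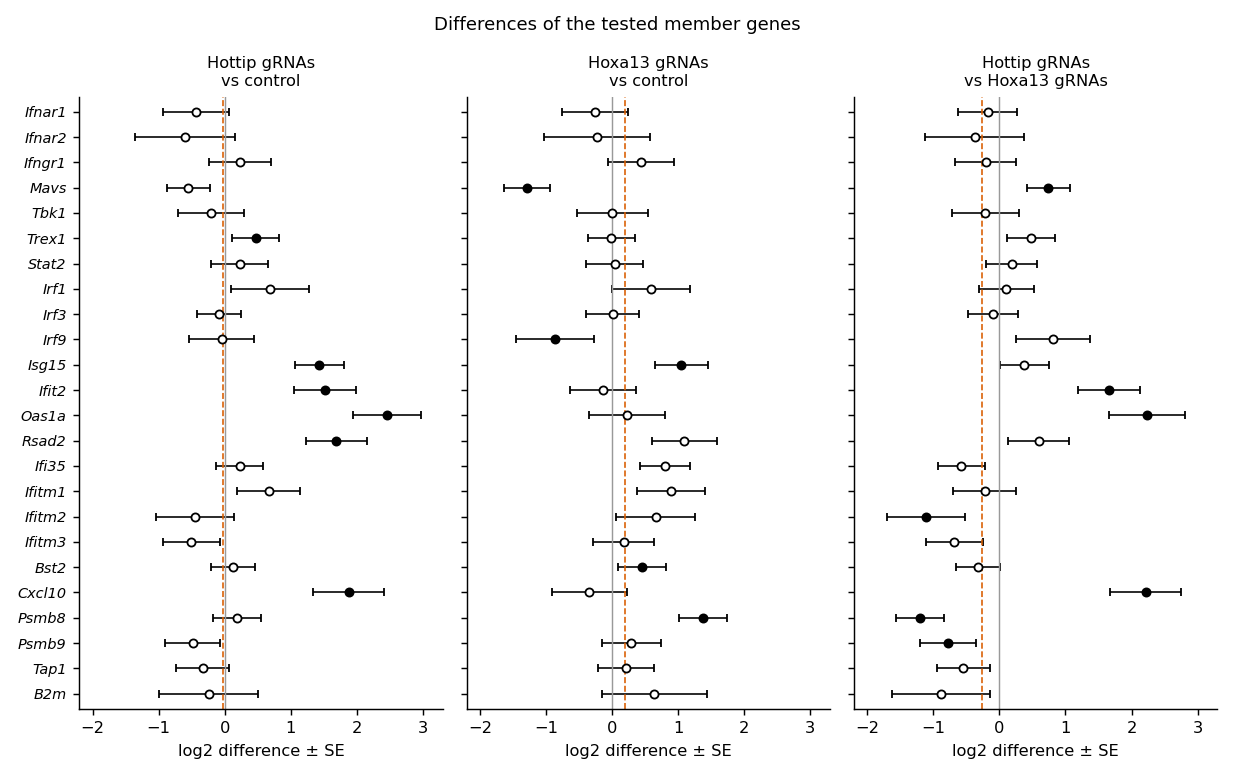
Difference in level (log2, horizontal axis) of the 24 tested genes in the 3 comparisons, as the limma estimate with its SE. Filled points are genes whose 2 groups did not overlap with outlier spots left out. The grey line is 0 and the dashed line is the median of all tested probes (-0.03, 0.19 and -0.26). In the left panel Oas1a, Cxcl10, Rsad2, Ifit2 and Isg15 lie between 1.43 and 2.45 and the other genes between -0.60 and 0.69.

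The arrays labelled Hoxa13 gRNA, on which Hoxa13 itself was not detected, were compared with the same 3 control arrays. By the representing probe 0 of 24 genes were called, against 0.175% of all tested probes (0.0613% higher and 0.114% lower), and 0 of 27 probes were called. At an unadjusted limma p under 0.05 there were 3 higher genes and 1 lower one, against 7.98% and 2.98% of all tested probes. Psmb8 stood 1.38 ± 0.36 higher (SE, limma adjusted p = 0.346) and Mavs 1.29 lower, at -1.29 ± 0.35 (SE, limma adjusted p = 0.346). Neither group pair overlapped, and 3 arrays against 3 cannot give an exact permutation p below 0.1. The spots around the Mavs probe, in an area of 11 by 11 spots, were also lower on these arrays, by a median of -0.95, and those around the Psmb8 probe differed by 0.21; the part of such local brightness in the results was not tested.

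Isg15 stood 1.05 ± 0.40 higher on the arrays labelled Hoxa13 gRNA (SE, limma adjusted p = 0.447), again without overlap. The second Oas1a probe stood 1.02 ± 0.37 higher (SE, limma adjusted p = 0.447), without overlap, and the brighter probe 0.22 ± 0.58 higher with overlap. Rsad2 stood 1.09 ± 0.49 higher (SE, limma adjusted p = 0.456), with overlap. The Hottip gRNA and Hoxa13-labelled differences share the control arrays, so the 2 sets of values are not independent of each other.

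Hoxa13 gRNA replicates 1 and 2 were on another slide, and replicate 3 shared its slide with the 7 other arrays. With that 1 array of the shared slide, Rsad2 differed by -0.01, Isg15 by 0.74, the second Oas1a probe by 1.04, Psmb8 by 1.32 and Mavs by -1.36. The Rsad2 difference came from the 2 arrays of the other slide. With slide as a block these 5 values were the same, which the design fixes, since the other slide held only arrays labelled Hoxa13 gRNA. Groups also did not overlap for Bst2, higher by 0.45 ± 0.36 but lower by 0.30, at -0.30, in the authors' own log2 values, and for Irf9, at -0.86 ± 0.59 (SE, limma adjusted p = 0.606 and 0.548). For Irf9 that holds only without the outlier spot of Hoxa13 gRNA replicate 3, and with outlier spots kept the difference was -0.39. With outlier spots left out, 3 genes were higher and 2 lower without overlap, against 16.5% and 6.97% of all tested probes. Cxcl10 was below background on all 6 arrays of this comparison, so no difference is given for it. The median over the 24 genes was 0.22, beside 0.19 over all tested probes, and 17 were above 0, beside 60.2% of all tested probes.

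Between the Hottip gRNA arrays and the arrays labelled Hoxa13 gRNA, 0 of 24 genes and 0 of 27 probes were called, against 0.381% of all tested probes (0.272% higher and 0.11% lower). At an unadjusted limma p under 0.05 there were 4 genes higher with Hottip gRNAs and 1 lower, against 4.06% and 7.87% of all tested probes. Oas1a stood 2.23 ± 0.58 higher by its brighter probe (SE, limma adjusted p = 0.195) and 2.0 ± 0.37 higher by its second probe (SE, limma adjusted p = 0.0616), and the mean of both differed by 2.04 and was called (limma adjusted p = 0.0254). The second probe was itself called in 6 of its alternatives, among them quantile normalization and the authors' log2 values. Cxcl10 stood 2.21 ± 0.54 higher (SE, limma adjusted p = 0.143), and no array labelled Hoxa13 gRNA detected it. The difference was 1.82-fold when set in the same way against the lowest signal well above background, which is again not a strict lower limit. Cxcl10 was called without Hottip gRNA replicate 1, again the Hottip gRNA array that stood lowest (2.69, limma adjusted p = 0.0427), and in the authors' log2 values (2.16, limma adjusted p = 0.0377), with an adjusted p of up to 0.521 in the other alternatives. Here too it was tested only through the Hottip gRNA arrays that detected it, so these calls depend on that filter. Ifit2 stood 1.66 ± 0.47 higher (SE, limma adjusted p = 0.213) and Mavs 0.74 ± 0.32 higher (SE, limma adjusted p = 0.408). Isg15 and Rsad2 differed by 0.38 ± 0.37 and 0.59 ± 0.46 (SE, limma adjusted p = 0.648 and 0.57), with overlapping groups.

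The lowest differences were those of Psmb8, Ifitm2 and B2m, none of them called. Psmb8 differed by -1.20 ± 0.36 (SE, limma adjusted p = 0.265), and Psmb9 by -0.78 ± 0.42 (SE, limma adjusted p = 0.456), both without overlap. For Psmb8 that holds only without the outlier spot of Hottip gRNA replicate 4, and with outlier spots kept the difference was -0.80. B2m differed by -0.89 ± 0.74 (SE, limma adjusted p = 0.596), with overlap. The 4 antigen processing genes had a median difference of -0.83, beside -0.26 over all tested probes, and none was called. Ifitm2 differed by -1.11 ± 0.59 over 2 arrays against 2 (SE, limma adjusted p = 0.468), but by 0.41 with outlier spots kept and by 0.24 in the authors' log2 values. With outlier spots left out, groups did not overlap for 4 higher and 3 lower genes, against 4.78% and 12.6% of all tested probes. The median over the 24 genes was -0.19, and 10 were above 0, beside 34.3% of all tested probes.

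Further genes of the pathway were taken from fixed lists. Of 54 such genes with a probe, 35 were tested and 0 were called in any comparison by limma. At an unadjusted limma p under 0.05, 1 was higher and 1 lower with Hottip gRNAs than in the control, against 3.76% and 4.29% of all tested probes. On the arrays labelled Hoxa13 gRNA 3 were higher and 0 lower than in the control, against 7.98% and 2.98%. With Hottip gRNAs 2 were higher and 4 lower than on the arrays labelled Hoxa13 gRNA, against 4.06% and 7.87%. The 12 tested sensors and adaptors had a median difference of -0.16 with Hottip gRNAs relative to the control, the 6 receptors, kinases and factors 0.09, the 12 effectors 0.04 and the 5 antigen presentation genes -0.02. Of 10 NF-kB and inflammatory genes, 5 were tested, and all 5 differed by less than 0 between the Hottip gRNA and control arrays. Their median was -0.51 and 0 were called. Over all tested probes the median was -0.03 and 47.8% were above 0. The gene of these lists that was lower was Igtp, an interferon-induced GTPase, named after its values were seen. It was detected on 4 arrays and differed by -1.74 (limma adjusted p = 0.129), a smaller adjusted p than those of Isg15, Rsad2, Cxcl10 and Ifit2. The gene that was higher was Sting1, from the list of sensors and adaptors, likewise named after its values were seen. Sting1 was dim, being detected on 4 arrays, and differed by 1.89 (limma adjusted p = 0.22). Between the Hottip gRNA arrays and those labelled Hoxa13 gRNA it differed by 1.29 (limma adjusted p = 0.384).

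Markers of other cell types were measured beside these differences. The summed linear level of the 7 immune cell markers with a probe ranged from 0.761 to 2.10 on the control arrays, from 1.13 to 4.15 on the Hottip gRNA arrays and from 1.25 to 2.38 on the arrays labelled Hoxa13 gRNA. That of the 8 fibroblast markers ranged from 1.09 to 2.93, from 1.23 to 8.51 and from 1.55 to 2.58 in the same order. That of the 7 extraembryonic endoderm markers ranged from 3.53 to 80.02, from 5.09 to 9.36 and from 2.61 to 3.73, with medians of 3.91, 7.83 and 2.85, and that of the 11 ES cell markers from 154.8 to 467.1, from 179.6 to 386 and from 377.7 to 575.2. Gata6, an endoderm factor named after its values were seen, differed by 1.66 between the Hottip gRNA and control arrays (limma adjusted p = 0.0929) and by 1.84 between the Hottip gRNA arrays and those labelled Hoxa13 gRNA (limma adjusted p = 0.0811). Dab2, with an SD of 4.01 over the control arrays, set the high end of the control range. The part of other cell types in the differences of the interferon-stimulated genes was not tested, and in bulk RNA more RNA per cell cannot be told apart from more cells that hold it.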

How the data were processed

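RNA of 10 samples (control, 3; Hottip gRNA, 4; Hoxa13 gRNA, 3, grouped by their titles) was hybridised to one-colour Agilent arrays. The authors deposited the scanner output of each array, with spot intensity and spot flags from Feature Extraction 11.5.1.1, and a table of log2 values, used as an alternative. The deposited processed intensity is background-subtracted and, except on Hottip gRNA replicates 3 and 4, corrected for trends across the array. Those 2 arrays share a lowest value over many dim spots.

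Control spots and outlier spots were left out, log2 was taken, the 75th percentile over all non-control spots of the array was subtracted, and spots of a probe were averaged. Probes were named by accession through RefSeq genes of GRCm38.p6. The 3 group means were estimated on all 55681 probes by lmFit and eBayes of limma 3.58.1 under R 4.3.3, with Benjamini-Hochberg adjustment over probes well above background on at least 3 arrays; the fit was tested on simulated data. An exact two-sided permutation test was added for each gene. The p-values measure the spread between the labelled biological replicates, and the number of arrays limits the precision.

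The genes, their roles and the other lists were chosen with earlier results of these data known. Genes given on every array are 20 pathway anchors, any called gene, the 3 largest rises and 3 largest falls in each comparison and up to 10 genes without overlap. Alternatives were normexp background correction (offset 50, on the median spot signal, as no mean is in the files), quantile normalization, median centring, the authors' log2 values, other filters, outlier spots kept, slide, slide row or replicate number as a block, the shared slide alone, only the groups compared, an intensity trend, the mean of a gene's probes, no trend correction and each array left out. The slide row, the uncorrected signal and a spread from tested probes only were added after the data were seen. The control, Hottip gRNA and Hoxa13 gRNA arrays of the same replicate number did not deviate together: their correlations ran from -0.23 to 0.14, so the numbers were not used as pairs.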

Additional observations from a re-analysis of the deposited data

How the results depend on the processing

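The medians over the tested genes moved by less than the spread between arrays (0.55) under all 27 alternatives, from -0.03 to 0.36 for Hottip gRNAs against control, from 0.01 to 0.32 for the arrays labelled Hoxa13 gRNA against control and from -0.31 to 0.26 between both. The count of genes called against control with Hottip gRNAs was 1 (Oas1a) with an intensity trend and with the mean of a gene's probes, and 0 to 1 when an array was left out, the 1 being Cxcl10 without Hottip gRNA replicate 1. The count of probes called was 2 with an intensity trend, 0 with the filter on all 10 arrays, which removes the second Oas1a probe, and 1 to 2 when an array was left out. With the replicate number as a block it was 0, the second Oas1a probe then having a limma adjusted p of 0.0826; the numbers pair no samples. That probe was called in the 24 other alternatives that tested it. For the arrays labelled Hoxa13 gRNA against control, no alternative called a gene or probe.

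Between the Hottip gRNA arrays and those labelled Hoxa13 gRNA, 1 gene was called in the authors' log2 values and with the mean of a gene's probes, and 0 to 1 when an array was left out. The count of probes was 1 with normexp, quantile normalization, an intensity trend, the spread from tested probes only and no trend correction, 2 in the authors' log2 values, and 0 to 1 when an array was left out.

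Directions turned for Ifitm3 with Hottip gRNAs (0.0813 without Hottip gRNA replicates 3 and 4), Ifnar2 (0.0072 with no trend correction), Bst2 on the arrays labelled Hoxa13 gRNA (-0.0026 with normexp, -0.0550 with quantile normalization, -0.30 in the authors' values), Rsad2 on those arrays (-0.0064 with slide as a block and on the shared slide alone) and Ifitm2 between both groups (0.24 in the authors' values, 0.41 with outlier spots kept). The causes were not tested. The count of 15 genes detected on all 10 arrays ranged from 15 to 21, the latter by the flag for a positive and significant signal. Signal over background limits the 13 genes detected on fewer than 3 arrays, for which no difference was tested.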
